A study of Mus musculus with 15 samples.

Results

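Dividing cells in the mouse eye were followed here through 41 genes of DNA replication and mitosis, taken as a set because they carry out or mark cell division. The set was defined by gene symbol and not by any measured value, and all 41 were found among the 20418 gene symbols of the tables, 39 under their current symbol and 2, Cdk1 and Cdc45, under an older one (Cdc2a and Cdc45l) that shares their RefSeq accession. Poly(A)+ RNA of whole eyes was sequenced in 15 libraries from BALB/c mice, to which an Egr1-/- line on C57BL/6 (Egr1 encodes an immediate-early transcription factor) had been backcrossed for 5 generations in one series and 4 in another. The libraries are labelled as eyes. The protocol text names eyelids only for eyes that were fixed, while the day-3 titles give the lid state, and RNA of retina, lens, epithelium, mesenchyme and muscle was present in the counts.

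The groups were 2 newborn wild types, 2 newborn Egr1KO samples, 1 adult wild type, 2 adult Egr1KO samples and 8 eyes of 4 mice at day 3 (labelled D3). The adult and newborn labels give no age in days, no animal and no eyelid state. At day 3 both eyes of each mouse were sequenced. Mouse E28 was Egr1+/- with both eyelids closed. Mice E24, E29 and E32 were Egr1-/-, with 1 open and 1 closed lid in E24 and E29 and both lids open in E32. OD is the right eye and OS the left. No day-3 wild type is among the samples analysed here, and 1 heterozygous mouse and 1 adult wild type stand for their groups.

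A cell that will divide first licenses its replication origins: the origin recognition complex, Cdc6 and Cdt1 load the Mcm2 to Mcm7 helicase onto DNA, and Cdc45 helps to switch that helicase on when S phase begins. Cyclin E and cyclin A with their kinases drive S phase, and cyclin B with Cdk1 drives entry into mitosis, where Aurora and Polo kinases, the kinetochore and motor proteins build the spindle and part the chromosomes. Cdc20 and Ube2c then work with the anaphase-promoting complex, a ubiquitin ligase, to end mitosis. E2F factors switch on many replication genes, and Foxm1 with the DREAM and MuvB complexes controls many mitotic genes. In the newborn mouse eye, retinal progenitors, lens epithelium, lid epidermis and mesenchyme still divide, while most cells of the adult retina no longer do.

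These genes are known for promoter elements that are read in the cell cycle, and 4 promoters are printed to show them. The RefSeq promoter table (build GRCm38.p6, 250 bases before to 50 after the start of each gene, 300 in all) held 33 of the 41 genes, with 35 promoters. It had no entry for Gmnn, Foxm1, Tpx2, Ccne2, Aurkb, Kif20a, Mcm4 and Ccna2. Both strands were searched for the CHR element TTTGAA, for CCAAT, for the E2F sites TTTCCCGC, TTTGGCGC, TTTCGCGC and TTTGCCGC, and for the GC box GGGCGG. Capitals mark each match on either strand in the 250 bases before the start, read 5′ to 3′ along the gene. Each gene shown holds the most kinds of motif in its role, and the 4 come from different roles.

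Cdk1 (chr10:69352913-69353162, minus strand): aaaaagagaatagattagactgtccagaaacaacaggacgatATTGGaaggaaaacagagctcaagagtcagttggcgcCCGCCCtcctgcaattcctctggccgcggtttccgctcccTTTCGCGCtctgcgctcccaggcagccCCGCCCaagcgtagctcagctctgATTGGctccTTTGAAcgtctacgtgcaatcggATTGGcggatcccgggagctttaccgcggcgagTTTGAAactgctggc
Mki67 (chr7:135716380-135716629, minus strand): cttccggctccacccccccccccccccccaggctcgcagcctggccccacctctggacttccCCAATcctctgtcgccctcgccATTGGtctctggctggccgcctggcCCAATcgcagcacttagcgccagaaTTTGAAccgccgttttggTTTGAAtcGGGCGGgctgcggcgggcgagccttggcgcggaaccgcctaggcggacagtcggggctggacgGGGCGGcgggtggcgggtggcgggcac
Ube2c (chr2:164769679-164769928, plus strand): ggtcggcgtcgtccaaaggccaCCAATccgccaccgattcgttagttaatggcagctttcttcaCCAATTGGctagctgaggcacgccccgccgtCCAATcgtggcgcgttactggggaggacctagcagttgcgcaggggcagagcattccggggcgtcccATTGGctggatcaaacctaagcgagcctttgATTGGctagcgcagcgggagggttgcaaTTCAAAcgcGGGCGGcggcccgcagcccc
Mcm6 (chr1:128359706-128359955, minus strand): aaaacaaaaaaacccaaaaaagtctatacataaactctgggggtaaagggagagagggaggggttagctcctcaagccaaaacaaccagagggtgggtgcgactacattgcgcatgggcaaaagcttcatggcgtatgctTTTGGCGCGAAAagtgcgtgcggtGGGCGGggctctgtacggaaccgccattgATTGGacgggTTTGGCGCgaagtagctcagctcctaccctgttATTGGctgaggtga

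Cdk1, the kinase of mitotic entry, held all 4 kinds: 3 CCAAT boxes, 2 GC boxes, 2 CHR elements and 1 E2F site. Mki67, a protein that coats mitotic chromosomes, and Ube2c, the ubiquitin-conjugating partner of the anaphase-promoting complex, held CHR, CCAAT and GC matches. Mcm6, a helicase subunit, held 3 E2F matches, of which 2 overlap on opposite strands, beside CCAAT and GC boxes and no CHR match. In Ube2c 2 CCAAT boxes overlap. In these 4 stretches no match overlapped a match of another motif.

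An E2F match was in 6 of the 13 promoters of replication genes (Cdc6, Cdt1, Mcm3, Mcm5, Mcm6 and Mcm7) and in 0 of the 15 promoters of the kinase, checkpoint, kinetochore, spindle and anaphase genes. A CHR match was in 11 of those 15 promoters (73.3%) and in 2 of the 13 replication promoters (15.4%), those of Mcm2 and Cdc45. Over all 35 promoters of the set, 48.6% held a CHR match, 80% a CCAAT box, 20% an E2F match and 82.9% a GC box. Among all 32851 promoters of the table the shares were 17.9%, 37.4%, 2.26% and 35.7%. Both a CHR match and a CCAAT box were in 48.6% of the set's promoters and in 6.95% of all promoters. All 17 promoters of the set with a CHR match also held a CCAAT box. Of the 5878 promoters of the whole table with a CHR match, 2284 did. These are letters found in a window, with no test, and binding was not measured.

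Counts summed over all transcripts ran from 20334849 to 43907093 per library. A read may enter these sums more than once where a gene has several transcripts. The authors' library totals, implied by the RPKM values, ran from 22506667 to 39064881. By those totals the adults (22506667 to 24552129) were shallower than the newborns (25806033 to 31344882). Day 3 (28738194 to 39064881) overlapped the newborns. Because the labels name no batch, age and sequencing set cannot be told apart. The 3 ages also differed in the share of gene symbols with a read. That share was 90.5 to 91.3% in adults, 91.8 to 98.1% in newborns and 80.4 to 83.7% at day 3. Newborn wild type 1 held the 98.1%, and the other newborns reached at most 93.9%. The summed counts of newborn wild type 1 were 75.6% of the authors' library total, against 99.5 to 112.4% in the other libraries. Egr1 itself went against the labels: it stood at 47 and 60.8 CPM in the newborn wild types and at 214 and 273 in the newborns labelled Egr1KO, and at 33.2 against 255 and 185 in the adults. At day 3 it stood at 98.9 and 110 in the heterozygous eyes and at 156 to 366 in the Egr1-/- eyes. The labels do not say which part of the gene the allele removes, so that these reads do not check the genotype, and these samples are called labelled knockouts, or knockouts for short, in what follows. Newborn knockout 1 carried little lens RNA (summed lens markers 1078 CPM against 100311 to 116603 in the other newborns). CPM here means counts scaled to library size (CPM with TMM factors across all 15 libraries). Where nothing in the labels separates animals, p-values measure the spread between libraries.

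Transcripts of the division genes were far lower in the adult eye. All 41 genes were lower in adults than in newborns, with a median log2 fold change of -2.64, and all 41 passed edgeR's quasi-likelihood test at an adjusted p under 0.05. Of all 17592 genes tested, 24.0% were called lower, and their median log2 fold change was -0.04. For all 41 genes, each of the 3 adult libraries was below each of the 4 newborn libraries, a separation seen downward in 24.2% of all genes. The adult mean was 16.3% of the newborn mean for the median gene, with a range from 6.23% for Ccnb1 to 65.9% for Ccne2. In RNA pooled over the cells of an eye, fewer dividing cells and less RNA per cell cannot be told apart.

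**Figure D1:**
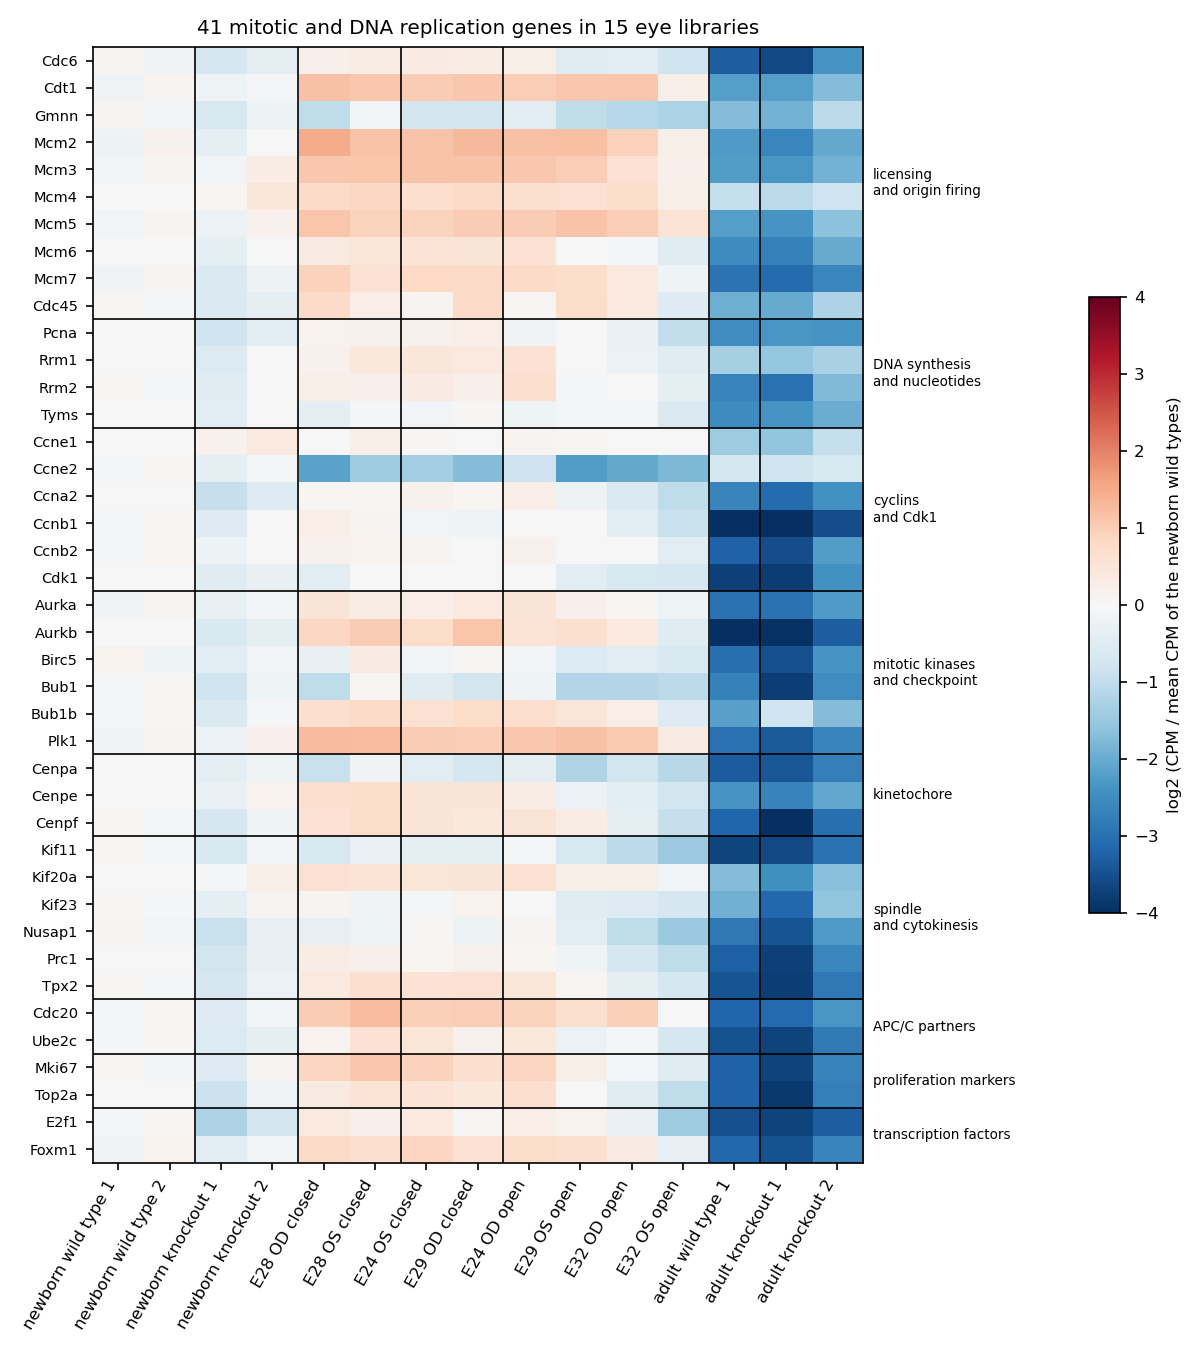
Heat map of the log2 ratio of each library's CPM to the mean of the 2 newborn wild types, with the 41 genes in rows by role and the 15 libraries in columns by group; colours end at -4 and 4, so stronger falls look alike. The 3 adult columns are blue throughout, most day-3 columns are red in most licensing genes, and Ccne2 is the row that is bluer at day 3 than in adults.

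Markers used to count dividing cells fell together. Mki67 stood at 186, 162, 122 and 186 CPM in the newborns and at 18.5, 13.4 and 27.3 CPM in the adults. Top2a, the topoisomerase that untangles replicated DNA, stood at 167, 170, 93.5 and 153 CPM in newborns and at 17.9, 11.7 and 25.2 CPM in adults. The lowest newborn library was thus far above the highest adult one in both genes. Their log2 fold changes were -3.09 (SE 0.33) and -3.0 (SE 0.35), with edgeR adjusted p of 0.000346 and 0.000508.

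Licensing genes fell in all 10 cases, with a median log2 fold change of -2.16. Cdc6, the loader of the helicase, was the furthest down at -2.82 (SE 0.35), from 10.4 to 18.2 CPM in newborns to 1.36 to 3.29 CPM in adults. Mcm4 was the least changed at -1.10 (SE 0.16), with 51.4, 52, 55.2 and 71.9 CPM in newborns and 26.6, 24.5 and 30 in adults. Mcm2 went from 158, 206, 141 and 183 CPM to 37.4, 29.7 and 43.9, a log2 fold change of -2.22 (SE 0.24). The helicase subunits differed in how far they fell: the log2 fold change was -1.10 for Mcm4 and between -2.09 and -2.72 for Mcm2, Mcm3, Mcm5, Mcm6 and Mcm7. Gmnn, the inhibitor that binds Cdt1, fell by 1.37 (SE 0.27), Cdt1 by 2.01 (SE 0.18) and Cdc45 by 1.53 (SE 0.23).

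All 4 genes of DNA synthesis and nucleotide supply fell. Pcna, the sliding clamp of the DNA polymerases, went from 149, 154, 87.4 and 111 CPM to 27.4, 30 and 29.5 (log2 fold change -2.12, SE 0.16). Rrm2 and Rrm1 are the subunits of ribonucleotide reductase, and they differed in how far they went: Rrm2 fell by 2.36 (SE 0.33) and Rrm1 by 1.26 (SE 0.19). Rrm1 is the subunit whose protein is known to persist through the cell cycle, and its transcript stood at 36.3 to 43.2 CPM in adults and 72.1 to 107 CPM in newborns. Tyms, the enzyme that makes thymidylate, fell by 2.24 (SE 0.20).

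The cyclins spanned the whole range of the set. Ccnb1, the mitotic cyclin B1, went from 29.2, 31, 21.1 and 29.5 CPM to 1.7, 0.877 and 2.59, a log2 fold change of -4.01 (SE 0.40; edgeR adjusted p = 0.000242). Ccne2, a cyclin of S-phase entry, went from 7.42, 8.22, 5.99 and 7.32 CPM to 4.84, 4.47 and 5, a log2 fold change of -0.60 (SE 0.19; edgeR adjusted p = 0.034). These groups did not overlap even for Ccne2, but its call was lost without newborn wild type 1 (adjusted p = 0.0767), newborn wild type 2 (0.115) or newborn knockout 2 (0.101), among other alternatives to the edgeR fit. Ccne1 fell by 1.47 (SE 0.20), Ccna2 by 2.34 (SE 0.23), Ccnb2 by 2.96 (SE 0.34) and Cdk1 by 3.16 (SE 0.36). Cdk1 stood at 45.9, 45.1, 32.6 and 37.3 CPM in newborns and at 3.45, 3.25 and 8.52 in adults, with adult knockout 2 the highest.

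Mitotic genes went further down than replication genes. The 17 kinase, checkpoint, kinetochore, spindle and anaphase genes had a median log2 fold change of -2.80, against -2.17 for the 14 replication genes, a description with no test. Aurkb, the kinase of the chromosomal passenger complex, fell by 3.65 (SE 0.23; edgeR adjusted p = 3.82e-05), from 47 to 73.4 CPM in newborns to 4.01 to 7.27 CPM in adults. Plk1, the Polo kinase of mitotic entry and spindle assembly, fell by 2.98 (SE 0.25), Aurka, the centrosome kinase, by 2.71 (SE 0.23), Birc5, the survivin subunit of the passenger complex, by 2.80 (SE 0.32), and Bub1, a checkpoint kinase, by 2.64 (SE 0.36). Bub1b, a spindle checkpoint protein, changed least at -1.55 (SE 0.28), and its adult values were 12.8, 33.3 and 17.1 CPM, with adult knockout 1 the high one. That library was the lowest adult in 34 of the 41 genes, so Bub1b departed from its usual place.

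At the kinetochore, Cenpf, a large protein of its outer layer, fell by 3.15 (SE 0.34), Cenpa, the centromeric histone, by 3.06 (SE 0.22) and Cenpe, a kinetochore motor, by 2.36 (SE 0.22). Among spindle and cytokinesis genes, Kif11, the motor that pushes the spindle poles apart, fell by 3.30 (SE 0.24). Kif20a, a motor of cytokinesis, fell by 1.93 (SE 0.23) and was the least changed of that role. Kif23, Nusap1, Prc1 and Tpx2 had log2 fold changes between -1.99 and -3.15. Ube2c went from 36.5, 38.5, 25.8 and 28.8 CPM to 3.36, 2.89 and 5.33 (-3.12, SE 0.25). Cdc20 fell by 2.79 (SE 0.26).

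Both transcription factors fell too. E2f1 stood at 98.2, 111, 45.1 and 63.7 CPM in newborns and at 9.07, 7.98 and 10.6 in adults (log2 fold change -3.05, SE 0.22). Foxm1 stood at 79.2, 96.9, 65.5 and 81.6 CPM in newborns and at 9.99, 7.81 and 14.3 in adults (-2.95, SE 0.27). Genes with a CHR match in their promoter had a median log2 fold change of -2.97 (16 genes) and those without one -2.36 (17 genes), with overlapping ranges (-3.30 to -1.53 and -4.01 to -1.26) and no test.

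**Figure D2:**
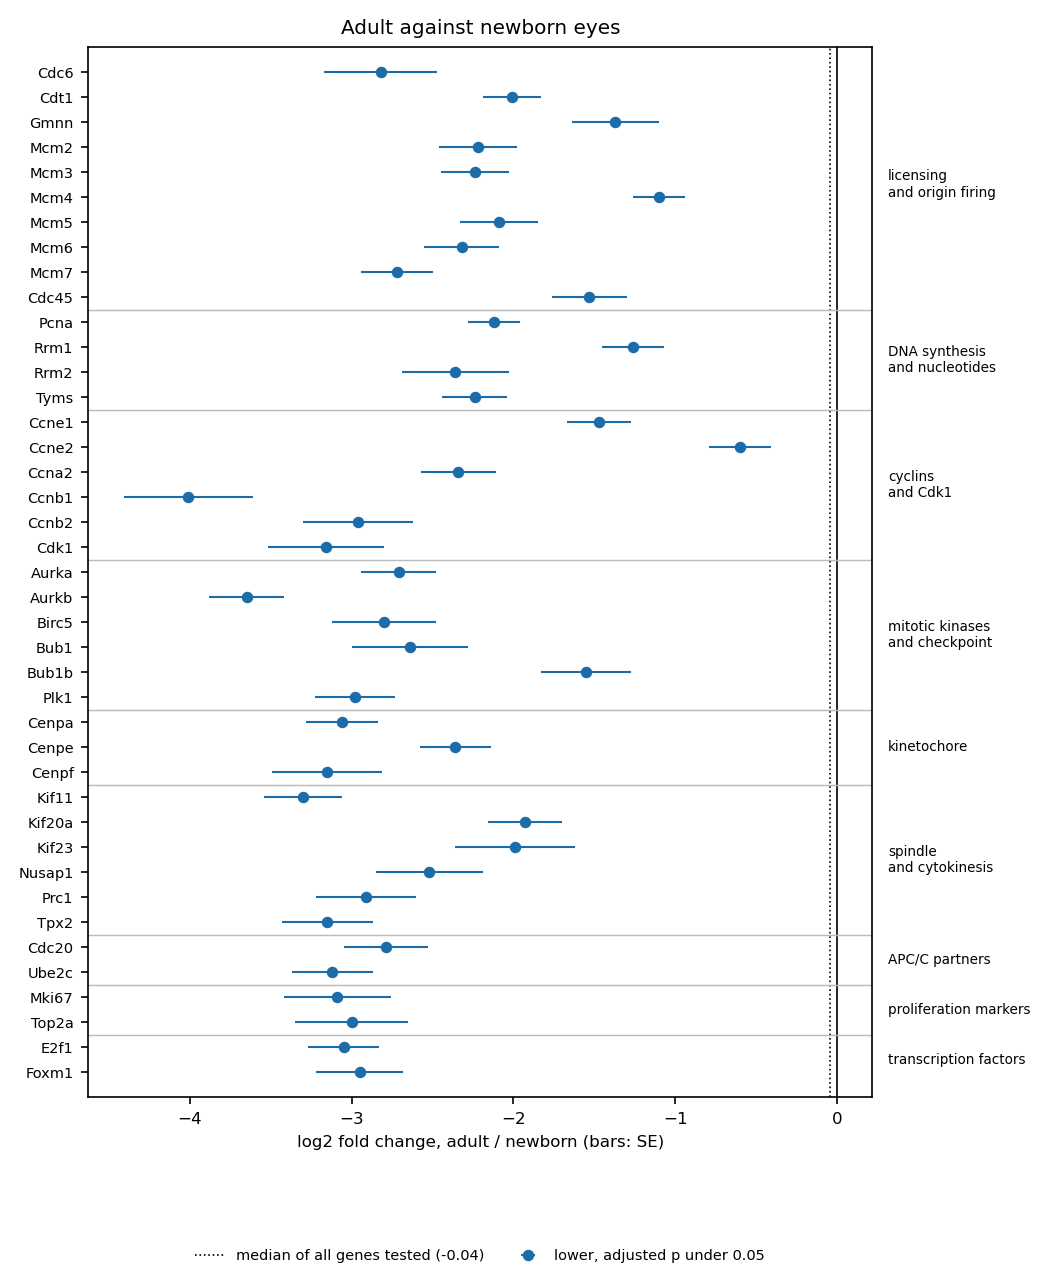
Log2 fold change of adult over newborn eyes for each of the 41 genes, ordered by role, with bars of 1 SE and the median of all tested genes as a dotted line. All points lie left of 0, from Ccne2 at -0.60 to Ccnb1 at -4.01, while the dotted line stands at -0.04.

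Other genes of the pathway moved the same way in most cases. Of 80 further mitotic genes 73 were called lower and 1 higher, with a median of -2.26. Fam64a (-4.20), Cks2 (-4.23), Cks1b (-2.89) and Gtse1 (-2.58) had the smallest p-values among them. Of 56 further replication genes 44 were called lower and 2 higher, the origin recognition genes Orc3l (0.44) and Orc4l (0.71). Dctpp1 (-1.78), Pola2 (-1.59), Asf1b (-1.85) and Tk1 (-3.22) led that list. The E2F, DREAM and retinoblastoma genes were mixed, with 10 of 19 lower (E2f2 -3.18, Mybl2 -3.0, Tfdp1 -1.94 and E2f8 -2.45 first) and 2 higher, the pocket proteins Rb1 (0.74) and Rbl2 (0.91), which repress E2F targets.

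Upstream regulators divided as well. Of 9 G1 cyclins, their kinases and the kinase-activating complex, 5 were lower: Cdk4 (-2.15), Ccnd3 (-1.49), Cdk2 (-1.13) and Ccnd1 (-2.06) led. Of 21 inhibitors and antiproliferative genes 11 were lower and 5 higher, the latter Cdkn2b, Gadd45a, Ccng1, Klf4 and Klf9. Among all 17592 genes 4444 were called higher and 4218 lower. Cdkn1c, the p57 inhibitor, was lower by 3.70 and Cdkn1b, the p27 inhibitor, by 0.68, while Cdkn1a, the p21 inhibitor, had a log2 fold change of -0.15 (edgeR adjusted p = 0.573). Of 14 subunits and partners of the anaphase-promoting complex 9 were lower, with a median of -0.61. Housekeeping genes were not all flat, with 6 of 14 lower, 4 higher and a median of -0.29.

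Markers of other cells moved with age in the same libraries. Summed retinal progenitor markers ran from 970 to 1013 CPM in adults and from 1234 to 3209 CPM in newborns, with 11 of 16 called lower and 1 higher. Atoh7, a marker of cells about to become ganglion cells, had 0 CPM in adult knockout 2 and 0.138 and 0.0439 CPM in the other adults, against 2.23 to 13.5 CPM in newborns. Summed photoreceptor markers ran from 24935 to 49556 CPM in adults and from 52 to 700 CPM in newborns, with 14 of 14 higher. Fibroblast and periocular mesenchyme markers were lower in 9 of 10 (1057 to 1643 against 4537 to 22654 CPM). Their part in the fall of the division genes was not tested.

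Some values rest on reads that copies of a gene may share. RefSeq lists pseudogenes named after 4 members (Pcna, Tyms, Ccnb1 and Ccnb2), so their levels and their fold changes between ages are uncertain, that of Ccnb1 (-4.01) included. The other 37 members were all called lower too, down to -3.65 for Aurkb. Ppia, a housekeeping gene with many processed copies, stood at 16.4 to 25.1 CPM in newborns and at 0.23 to 0.307 CPM in adults. Whether reads that fit several copies were counted alike in the libraries of each age was not tested.

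Per length, the genes of replication were among the most abundant of the set in newborns. Dividing the CPM by the exon length gave Pcna 99.6 ± 25.3 CPM per kb (SD, n = 4), Mcm2 51 ± 8.52, Cdc20 45.6 ± 7.43, Mcm7 41.4 ± 8.11 and Mcm5 38.7 ± 4.85. From Mcm2 to Mcm5, the ranges of 1 SD of neighbours in this order overlap. At the low end stood Ccne2 at 2.4 ± 0.307, Cdc6 at 3.14 ± 0.73 and Bub1 at 3.48 ± 0.802 CPM per kb. In adults Pcna (23 ± 1.09, n = 3) was still first, followed by Mcm2 (11 ± 2.1) and Rrm1 (10.1 ± 0.908), and Cdc6 (0.467 ± 0.227) was last.

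From newborn to day 3, 4 of 10 licensing genes and 3 mitotic genes rose in the labelled knockouts. This comparison asks how the levels moved in the first days after birth. With the 2 eyes of each mouse summed, 3 mice were compared with 2 newborn libraries. Of 41 genes, 7 were higher and 1 lower (Ccne2). Among all 17980 genes tested, 11.1% were called higher and 6.70% lower. The members' median log2 fold change was 0.44, and that of all genes was -0.08. The 7 were Mcm2, Mcm5, Mcm7 and Cdt1 of licensing, Aurkb and Plk1 of the kinases, and Cdc20.

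Mcm2 stood at 141 and 183 CPM in the newborn knockouts and at 411, 417, 346, 212, 403 and 452 CPM in the 6 knockout eyes of day 3. Every day-3 eye was above both newborns, with E32 OS (212) the nearest, and the log2 fold change was 1.22 (SE 0.28; edgeR adjusted p = 0.0257). Such upward separation was seen in 6 of 41 members and in 3089 of all 17980 genes, no more often in the members. Cdt1 stood at 50.4 and 54.4 CPM against 67.2 to 121 CPM (1.08, SE 0.20; edgeR adjusted p = 0.0152). Mcm5 and Mcm7 both rose by 0.98 (SE 0.25 and 0.26). Aurkb was at 47 and 55.7 CPM against 51.4 to 155 CPM (1.06, SE 0.28), and its groups overlapped through E32 OS. Plk1 rose by 1.00 (SE 0.25), and Cdc20 from 62.7 and 83.5 CPM to 91.5 to 176 CPM (1.08, SE 0.26).

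Ccne2 went the other way. It stood at 5.99 and 7.32 CPM in the newborn knockouts and at 4.42, 1.66, 1.88, 2.23, 2.97 and 2.32 CPM at day 3, with no overlap. The log2 fold change was -1.35 (SE 0.34; edgeR adjusted p = 0.0314). Downward separation was seen in 3 of 41 members and in 3768 of all 17980 genes. Ccne1, the other cyclin E, had a log2 fold change of -0.23 (SE 0.20).

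The remaining 33 genes did not pass. Mki67 had a log2 fold change of 0.63 (SE 0.41), Top2a of 0.60 (SE 0.45), E2f1 of 0.94 (SE 0.32; edgeR adjusted p = 0.0745), Foxm1 of 0.79 (SE 0.31) and Pcna of 0.52 (SE 0.23). Cdk1 (0.14, SE 0.36) and Ccnb1 (0.04, SE 0.37) were near 0, and their sign turned under other scalings. Within licensing, Gmnn had the opposite sign (-0.44, SE 0.31). The smallest differences in their roles were those of Mcm4 (0.33), Tyms (0.07), Birc5 (0.01), Cenpe (0.12), Kif23 (-0.11) and Ube2c (0.53). The largest of the kinetochore and spindle genes were Cenpf (0.58) and Tpx2 (0.63).

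The rise rests on few samples. Without newborn knockout 1, 0 of the 41 members passed, and so did 0 of all 17769 genes then tested. No member kept its call without newborn knockout 2 either, a fit with a single newborn knockout. Without mouse E29 0 members passed, against 478 higher and 377 lower of all 17819 genes. With E24 left out only Cdt1 was still called higher, against 1264 of all 17828 genes. At an unadjusted p under 0.05 in edgeR, 12 of 41 members and 6650 of all 17980 genes passed with all samples. Without E29 these were 8 of 41 members and 5176 of all 17819 genes. In neither case did a larger share of the members pass than of all genes. With the authors' library totals, which move the median of all genes to -0.30, 2 of 41 were called higher. Those totals called 806 of all 17980 genes higher. Without the eye E32 OS, 10 of 41 were higher and 1 lower, against 2348 and 1457 of all 17981 genes.

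**Figure D3:**
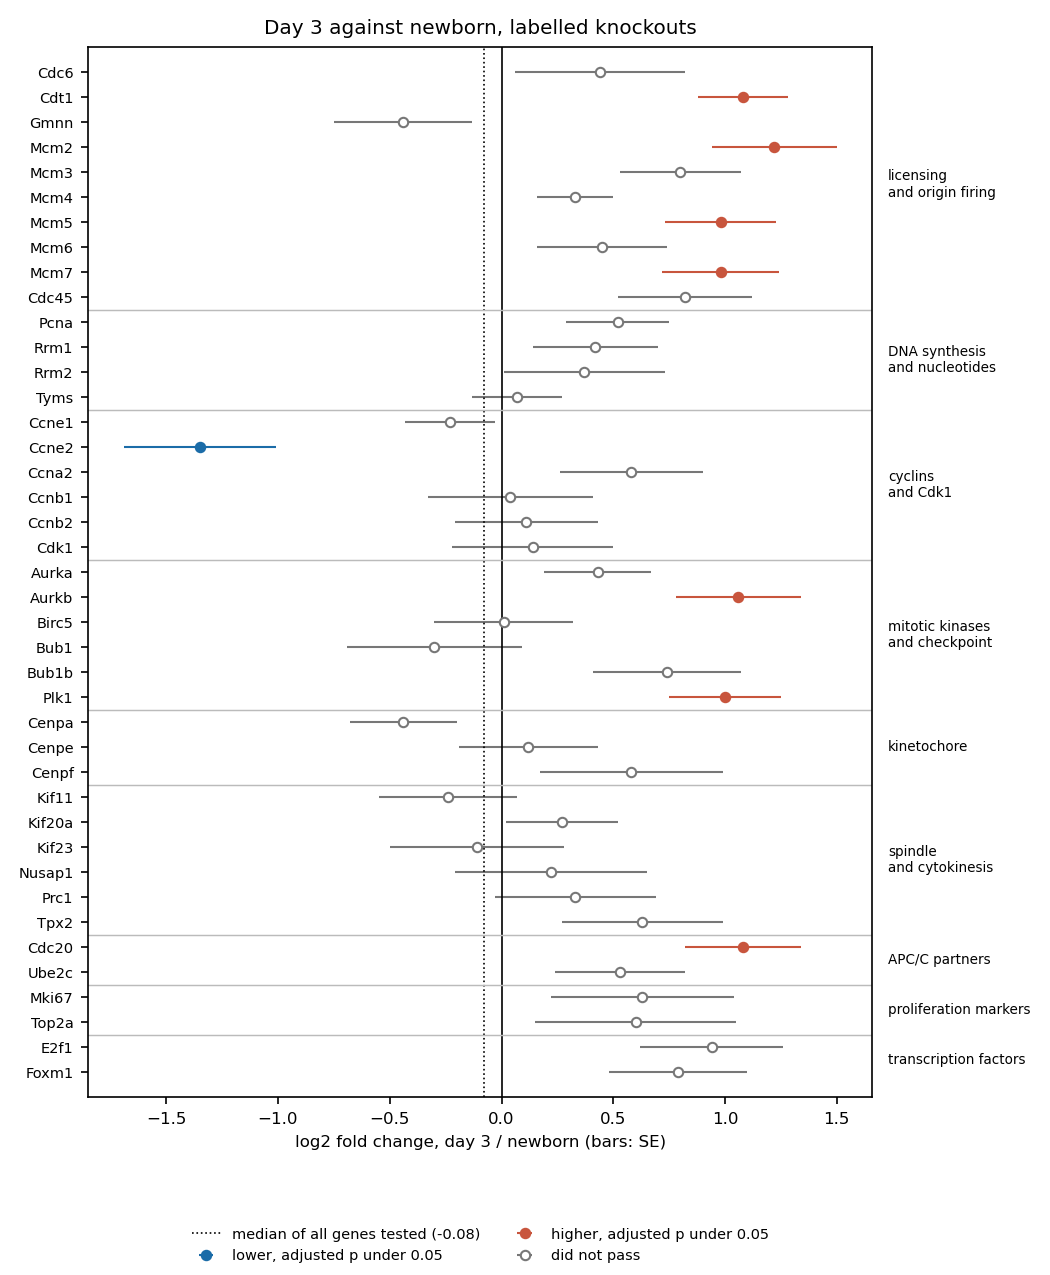
Log2 fold change of day-3 over newborn labelled knockouts for the 41 genes by role, with bars of 1 SE. Filled points passed the test: 7 on the right, led by Mcm2 at 1.22, and Ccne2 alone on the left at -1.35.

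In the further lists, 5 of 56 replication genes were higher (Pold1 1.37, Pold2 0.92, Dnmt1 0.96, Rfc2 0.56 and Fen1 0.79) and 1 lower (Orc4l -1.35). Of 80 mitotic genes 6 were higher, with Ccnf (1.06), Gtse1 (1.10) and Cit (1.01) first, and 2 lower, Cdc25a (-0.57) and Depdc1a (-1.36). Over all genes 11.1% were called higher and 6.70% lower. Neither of these lists was thus called higher more often than all genes. E2f4 was higher (0.87), and E2f5 (-1.11) and Lin9 (-0.86) were lower. Of the 9 G1 genes Cdk7 alone passed (-0.76). Among the inhibitors Cdkn2c (0.76) and Gadd45a (0.79) were higher and Btg3 (-0.88), Ccng1 (-0.67) and Trp53inp1 (-0.67) lower. Fzr1 (0.89), the other activator of the anaphase-promoting complex, rose with Anapc7 (0.71) and Anapc11 (0.70). Ccnd1 (1.49, edgeR adjusted p = 0.0651), Cdkn1a (-0.35), Cdkn1b (-0.27) and Cdkn1c (-0.21) did not pass.

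Retinal progenitor markers moved with this comparison, 11 of 16 being higher at day 3. Their sum was 1234 and 1424 CPM in the newborn knockouts and 1146 to 5947 CPM in the knockout eyes of day 3, the lowest again in E32 OS. Their part in the rise was not tested.

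From day 3 to adult, nearly all of the division genes fell in the labelled knockouts. Of 41 genes 39 were lower and 0 higher, with a median log2 fold change of -2.71. Among all 17980 genes 25.7% were called lower, and the median was 0.07. In 39 genes both adult knockouts were below all 6 knockout eyes, a downward separation found in 27.0% of all genes. The exceptions were Gmnn and Ccne2. The day-3 libraries also enter the comparison with newborns, and the adult ones the comparison of adults with newborns.

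Aurkb fell the most, by 4.17 (SE 0.34), with 4.65 and 7.27 CPM in adult knockouts. Plk1 fell by 3.95 (SE 0.29; edgeR adjusted p = 5.46e-05), Ccnb1 by 3.91 (SE 0.46), Cenpf by 3.70 (SE 0.49) and Mki67 by 3.55 (SE 0.47). Foxm1 fell by 3.53 (SE 0.35), E2f1 by 3.48 (SE 0.36), Top2a by 3.34 (SE 0.51), Cdk1 by 2.71 (SE 0.41), Mcm2 by 3.36 (SE 0.31) and Pcna by 2.26 (SE 0.25). The smallest called falls were those of Ccne1 (-1.29, SE 0.21), Mcm4 (-1.55, SE 0.18), Rrm1 (-1.59, SE 0.29) and Bub1b (-1.63, SE 0.35). The largest falls were those of Mcm7 (-3.42) in licensing, Rrm2 (-2.42) in nucleotide supply and Tpx2 (-3.45) in the spindle role. Cdc20 (-3.46) and Ube2c (-3.27) fell by like amounts, and Cenpa (-2.32) and Kif23 (-1.94) fell least in their roles.

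Gmnn stood at 3.64 and 6.58 CPM in adult knockouts and at 5.58 to 10.1 CPM in the knockout eyes of day 3, with overlap and a log2 fold change of -0.56 (SE 0.32; edgeR adjusted p = 0.178). Ccne2 was higher in adults, at 4.47 and 5 CPM against 1.66 to 4.42 CPM, without overlap but short of the threshold (0.86, SE 0.34; edgeR adjusted p = 0.0628). Upward separation was seen in 5521 of all 17980 genes. Ccne2 was thus lowest at day 3, with 1.66 to 4.42 CPM in open eyes and 1.78 to 2.97 CPM in closed ones.

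**Figure D4:**
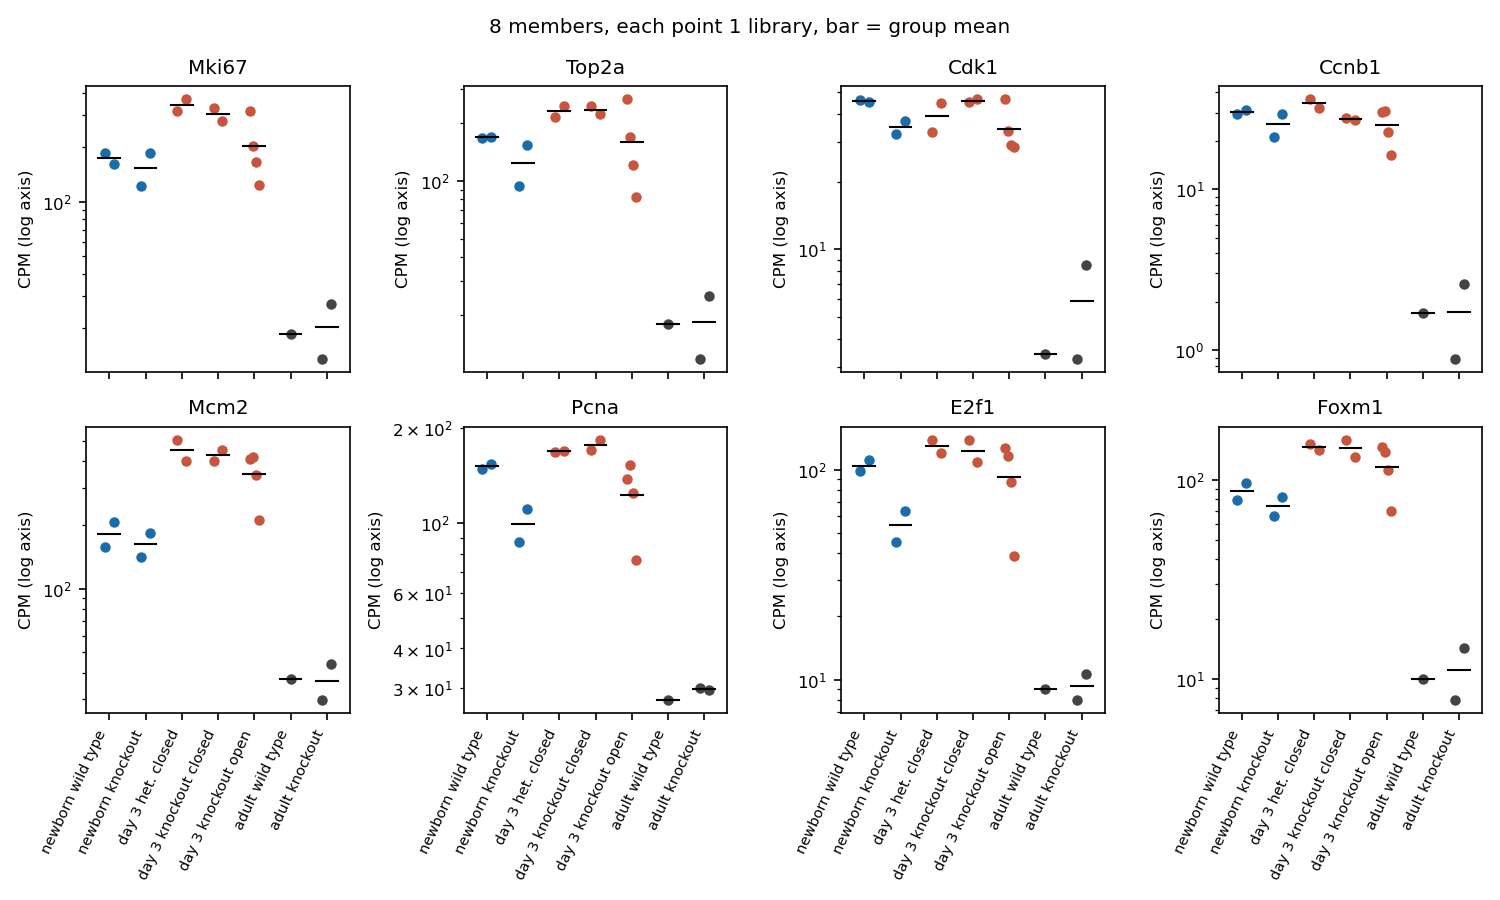
CPM on a log axis for 8 genes, with 1 point per library, the 7 groups along the x axis and a bar at each group mean. Adult points (dark grey) lie below all newborn (blue) and day-3 (red) points in each panel, and the lowest open eye of day 3 in each panel is E32 OS.

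Of the further genes, 66 of 80 mitotic ones were lower from day 3 to adult and 2 higher, and 34 of 56 replication ones lower and 3 higher. Iqgap3 (-3.59), Fam64a (-4.68), Ccnf (-3.13) and Gtse1 (-3.22) led the first list, and Pold1 (-3.07), Rfc2 (-1.75), Dctpp1 (-2.02) and Tk1 (-3.23) the second. E2f2 (-2.85), Mybl2 (-3.33), Tfdp1 (-1.70) and E2f4 (-1.53) fell, as did Cdk4 (-2.20), Ccnd3 (-1.96), Cdk6 (-1.46) and Ccnd1 (-3.12). Cdkn1c was lower (-4.01), and Cdkn1a (-0.21) and Cdkn1b (-0.13) did not pass. Of 14 housekeeping genes 8 were lower and 2 higher (median -0.73).

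Cell markers moved with this comparison as well. Retinal progenitor markers were lower in adults in 11 of 16 and higher in 1 (970 and 991 CPM summed against 1146 to 5947), and photoreceptor markers were higher in 14 of 14 (24935 and 38793 against 32.7 to 708 CPM). Muscle markers were lower in 8 of 9 (721 and 2233 against 2516 to 7440 CPM) and fibroblast markers in 7 of 10 (1057 and 1643 against 9934 to 23969 CPM). Their part in the fall was not tested.

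Between genotypes in newborns, 1 of 41 genes passed, E2f1, which was lower in the labelled knockouts. Over all 17592 genes 9.38% were called lower and 14.6% higher. Most members leaned the same way without passing: 37 of 41 had a log2 fold change below 0, with a median of -0.26 (all genes -0.07). Both knockouts lay below both wild types in 21 of 41 genes, a separation found downward in 35.0% of all genes. Newborn knockout 1 was below newborn knockout 2 in all 41 genes and was the lowest newborn in 39, and the median was -0.10 without it and -0.48 without newborn knockout 2.

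E2f1 stood at 98.2 and 111 CPM in the wild types and at 45.1 and 63.7 CPM in the labelled knockouts, a log2 fold change of -0.94 (SE 0.23; edgeR adjusted p = 0.0274). The call was lost without newborn wild type 1 (adjusted p = 0.106), without newborn wild type 2 (0.132), without newborn knockout 1 (0.138) and with the authors' library totals (0.0562). Pcna was next, at 149 and 154 CPM against 87.4 and 111 CPM (-0.60, SE 0.18; edgeR adjusted p = 0.0516), and Ccna2 at 118 and 117 CPM against 61.9 and 81.4 CPM (-0.70, SE 0.26; edgeR adjusted p = 0.0901).

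Mki67 overlapped between the genotypes and the other values here did not pass. Mki67 was at 186 and 162 CPM in wild types and at 122 and 186 CPM in labelled knockouts (-0.16, SE 0.35), Top2a at -0.45 (SE 0.38), Cdk1 at -0.37 (SE 0.37), Ccnb1 at -0.24 (SE 0.38), Mcm2 at -0.17 (SE 0.27) and Foxm1 at -0.25 (SE 0.29). Mcm4 (0.30, SE 0.19) and Ccne1 (0.29, SE 0.23) were higher in both labelled knockouts than in both wild types, without passing. This upward separation was seen in 5857 of all 17592 genes. In the other roles the largest differences were Cdc6 (-0.50), Aurkb (-0.48), Cenpf (-0.39), Nusap1 (-0.58) and Ube2c (-0.45), and the smallest Mcm5 (-0.01), Tyms (-0.19), Ccnb2 (-0.09), Plk1 (0.00), Cenpe (-0.03), Kif20a (0.09) and Cdc20 (-0.29).

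Regulators outside the set did pass in newborns with all 7 libraries. Without newborn wild type 1, 0 of all 16583 genes passed, so that each of these calls was lost. Ccnd2 (1.32) and Ccnd3 (0.97) were higher in the labelled knockouts, and Ccnd1 was not called (-1.02, SE 0.43; edgeR adjusted p = 0.131). Of the inhibitors, Cdkn1a (1.28), Cdkn2b (2.82) and Klf4 (2.18) were higher, and Cdkn1b (-0.77), Cdkn2c (-0.81), Btg1 (-0.66), Btg2 (-1.43), Gadd45g (-1.15) and Ccng2 (-0.86) lower. Cdkn1c did not pass (0.86). Mybl1 (-1.69), E2f2 (-0.67), Tfdp2 (-0.69) and E2f5 (-0.67) were lower. So were 5 of 80 further mitotic genes (Fam64a -0.84, Kif18a -1.19, Zwint -0.81, Spc25 -1.26 and Kif22 -0.76) and 1 of 56 replication genes (Dut -0.86). Over all genes 9.38% were called lower.

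The cell markers differed strongly between the same newborn eyes. Retinal progenitor markers were lower in 12 of 16 (1234 and 1424 CPM summed against 2718 and 3209), photoreceptor markers in 13 of 14 (52 and 146 against 601 and 700). Markers of basal epidermis and corneal epithelium were higher in 10 of 11 (8665 and 9740 against 1149 and 1658 CPM) and fibroblast markers in 7 of 10 (14050 and 22654 against 4537 and 6799 CPM). Their part in the level of E2f1 or of any member was not tested.

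In adults no member passed between genotypes in edgeR (0 of 41, and 0% of all 17592 genes). DESeq2 called 0 of 41, against 94 higher and 7 lower of all 18690 genes. At an unadjusted p under 0.05 in edgeR there was 1 member, Bub1b (1.01, SE 0.42), and 506 of all genes. The 2 labelled knockouts stood on either side of the single wild type in 34 of 41 genes, adult knockout 1 the lowest and adult knockout 2 the highest. Adult knockout 1 also stood apart in its cell markers, with summed lens markers at 9868 CPM against 48463 and 62117 in the other adults, and basal and corneal epithelium markers at 6695 against 14183 and 16829. Krt12, the keratin of corneal epithelium, was at 2.63 CPM there and at 6436 and 3865 CPM in the others, and the part of these differences in the members' levels was not tested. For Cdk1 the values were 3.45 CPM in the wild type and 3.25 and 8.52 in the knockouts (0.80, SE 0.52). Mki67 (0.17, SE 0.45), Top2a (0.08, SE 0.48), Ccnb1 (0.05, SE 0.58), Mcm2 (0.01, SE 0.33), Pcna (0.15, SE 0.23), E2f1 (0.07, SE 0.30) and Foxm1 (0.18, SE 0.38) had SEs larger than their differences. The median over the members was 0.21, and it turned to -0.17 without adult knockout 2.

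The genotype effect was also compared between ages. No member passed in edgeR (0 of 41 against 2.80% of all genes). DESeq2 called 0 members, against 908 higher and 1210 lower of all 15549 genes. At an unadjusted p under 0.05 in edgeR, with all libraries, there were 3638 of all 17592 genes and, as a smaller share, 4 of 41 members. The members' values moved with the adult knockout left out, as given below, so this order of shares is not secure. The 4 members with all libraries were Bub1b (1.30, SE 0.53), Aurkb (1.09, SE 0.39), E2f1 (1.01, SE 0.38, edgeR adjusted p = 0.196) and Pcna (0.75, SE 0.29). Cdk1 had a difference of 1.17 (SE 0.64), while Mki67 (0.34), Top2a (0.53), Ccnb1 (0.30), Mcm2 (0.18) and Foxm1 (0.43) had smaller values. E2f2, from the pathway list, passed at 1.84 (SE 0.31; edgeR adjusted p = 0.0422), at 33.3 and 35.1 against 21.6 and 21.2 CPM in newborns and 2.03 against 3.99 and 4.95 CPM in adults. That call was lost without newborn wild type 1 and without newborn wild type 2, where 0 of all genes passed, and with the replicate number as a block, where 0 genes were called higher.

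At day 3, no member passed between the labelled knockout mice and the heterozygous mouse (0 of 41 and 0% of all 16453 genes in edgeR). In DESeq2 0 of 41 passed, against 91 higher and 6 lower of all 17945 genes. At an unadjusted p under 0.05 in edgeR there were 0 members and 273 genes. The sums of the 2 eyes of each of 3 knockout mice were set against 1 heterozygous mouse, whose spread was assumed to be that of the others, so that the lack of calls does not show that the genotypes were alike. The members' median was -0.21 (all genes 0.03), with 38 of 41 below 0. All 6 knockout eyes lay below both heterozygous eyes in 7 of 41 members and in 778 of all 16453 genes. Upward separation was seen in 0 members and 567 genes. Both heterozygous eyes come from 1 mouse, so this separation does not tell genotype from animal. Mki67 was at 317 and 370 CPM in E28 and at 123, 165, 204, 278, 319 and 330 CPM in the knockout eyes, so that 2 knockout eyes lay above the lower heterozygous eye (-0.50, SE 0.44). The other values were -0.28 for Top2a, 0.02 for Cdk1, -0.38 for Ccnb1, -0.26 for Mcm2, -0.22 for Pcna, -0.31 for E2f1 and -0.18 for Foxm1, with SEs of 0.29 to 0.50. Cenpe had the lowest value (-0.60) and Ccne2 the highest (0.21). With closed eyes alone the median was -0.02, and without the eye E32 OS it was -0.13.

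Open and closed eyelids gave no call in the set either. With the mouse as a block, 0 of 41 genes passed in edgeR, against 0.594% of all 15159 genes. In DESeq2 0 of 41 passed, against 341 higher and 24 lower of all 16218 genes. At an unadjusted p under 0.05 in edgeR there were 0 members and 917 of all 15159 genes. The members' median was -0.07. The differences were -0.23 (SE 0.21) for Mki67, -0.12 (SE 0.23) for Top2a, -0.19 (SE 0.22) for Cdk1, 0.17 (SE 0.21) for Ccnb1, -0.02 (SE 0.25) for Mcm2, -0.26 (SE 0.23) for Pcna, 0.00 (SE 0.34) for E2f1 and 0.00 (SE 0.23) for Foxm1. Only the eyes of E24 and E29 differ in lid state within a mouse, so the comparison rests on 2 animals.

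Those 2 mice did not do the same. In E24 the open eye was above the closed one in 24 genes and below it in 17, with a median log2 difference of 0.03. In E29 it was below in 34 genes, with a median of -0.27 and the largest gap in Cdc6 (11.9 against 20.5 CPM). In E32, where both lids were open, the left eye was below the right in 38 of 41 genes with a median of -0.43, down to -1.16 for E2f1 (39 against 87.2 CPM). The closed eyes of the heterozygous E28 had a median of 0.10, with Bub1 at 17.9 and 8.52 CPM. Across all 13304 genes with at least 1 CPM in every eye, the medians of these differences lay between -0.03 and 0.01. The difference between the 2 open eyes of E32 was thus larger than that between open and closed eyes in E24 or E29. Markers of basal epidermis and corneal epithelium ran from 4158 to 11875 CPM in open eyes and from 1409 to 2761 CPM in closed ones, with 4 of 11 higher and 1 lower in open eyes, and their part in these values was not tested.

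**Figure D5:**
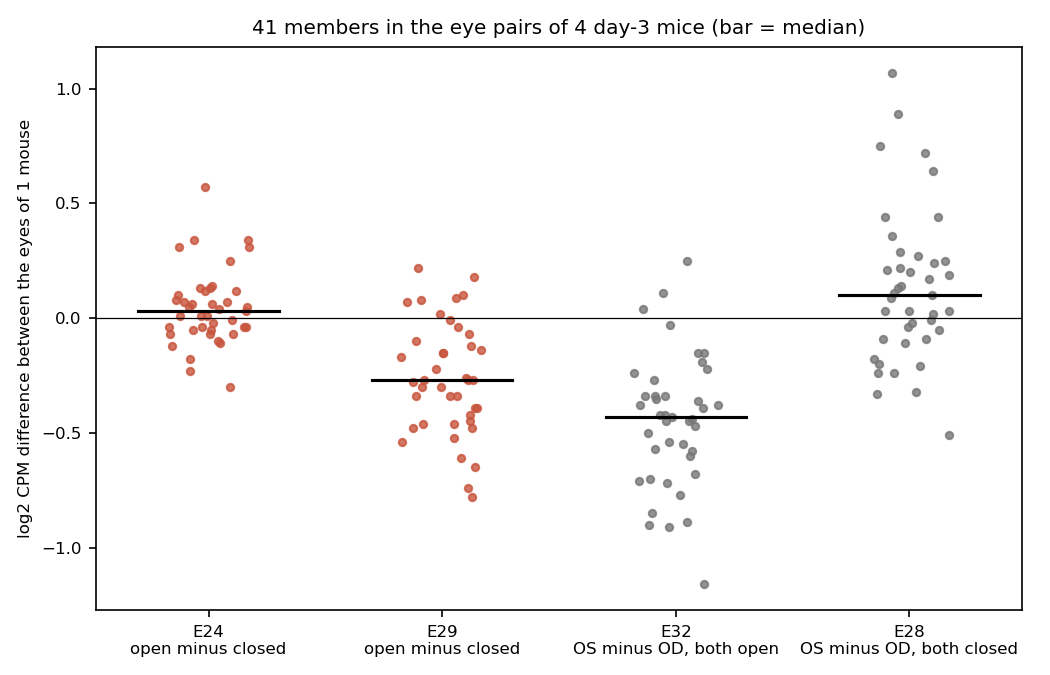
Log2 CPM difference between the 2 eyes of each day-3 mouse, with 1 point per gene and a bar at the median of the 41 genes; red marks open minus closed (E24 and E29), grey the left minus the right eye of mice with lids alike (E32 both open, E28 both closed). The median is 0.03 in E24, -0.27 in E29, -0.43 in E32 and 0.10 in E28.

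One eye stood apart. E32 OS had the lowest value of the 8 day-3 eyes in 37 of 41 genes, against 26.1% of all 13304 genes. Mcm2 was at 212 CPM there and at 346 to 505 CPM in the others, E2f1 at 39 against 87.2 to 139, and Top2a at 82.4 against 121 to 267. Its summed retinal progenitor markers were 1146 CPM against 3712 to 7578 in the other 7 eyes, its photoreceptor markers 32.7 against 216 to 708, and its fibroblast markers 23969 against 8710 to 17418. Ccnd1, a cyclin of dividing retinal cells, was at 560 CPM against 1591 to 2893. Their part in the low values of this eye was not tested.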

How the data were processed

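Each of the 15 libraries had a deposited table of 24373 RefSeq transcripts with 20418 gene symbols. The authors gave raw read counts per transcript and RPKM values, per the file headers. Per the submitters' processing notes, CASAVA 1.8, Bowtie 0.12.9, TopHat2 2.0.11, SAMtools and build mm8 were used, and the counting tool is not given in the sources used here. The labels describe 18 PCR cycles and no molecular identifiers or strand marking. They name fixation in one place and RNAlater in another.

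One transcript per symbol was kept, that with the highest mean count. Counts were tested in R 4.3.3 with edgeR 4.0.16 (TMM, filterByExpr, quasi-likelihood, Benjamini-Hochberg threshold 0.05), which was tested on simulated data. DESeq2 1.42.0, other scalings and filters and left-out libraries were alternatives. RPKM served only for a filter of at least 1. The 4 newborn and 3 adult libraries shared 1 fit, and the lone adult wild type was assumed to vary like the others. For comparisons of day-3 mice with other mice, the eyes of a mouse were summed; for eyelids the mouse was a block. The SE is the size of the log2 fold change divided by the square root of F. No replicate pair agreed within sampling noise (at least 12.4 chi-square per gene). The members, lists, rule for named genes (all members by role, per role the largest and smallest change and 8 genes throughout, list genes by smallest p), tests and alternatives were chosen with earlier results of these data known; the choice of 4 promoters, the search for named pseudogenes and the analysis without E32 OS came after seeing the data.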

Additional observations from a re-analysis of the deposited data

Results flagged for a closer look

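In the group of 4 open eyes at day 3, each of the 41 genes was checked for an eye far from the rest by Dixon's ratio of gap to range against its 95% critical value. For Cdt1, E32 OS stood at 67.2 CPM, while the other 3 eyes were at 113, 120 and 121 CPM (ratio 0.851). For Bub1, E24 OD stood at 15.3 CPM against 7.73, 7.76 and 8.37 CPM (ratio 0.915). These were 2 of 41 genes, and chance alone flags about 1 group in 20. With all libraries, no member's genotype effect passed edgeR's test of its difference between newborn and adult.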

How the results depend on the processing

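Age results held best. The count of members lower in adults than in newborns was 39 to 41 in all 16 alternatives (40 with the replicate block, median -2.43; 39 in labelled knockouts alone; 40 in wild types alone), and that from day 3 to adult 39 in all 14. The median from day 3 to adult ran from -3.23 without adult knockout 2 to -2.27 without adult knockout 1. Ccne2 was called higher from day 3 to adult, as 1 member against 0, with the authors' totals, at a mean of at least 1 RPKM, in DESeq2, with closed eyes only and without E24 (range 0 to 1 over left-out samples).

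From newborn to day 3, 2 members were called higher with the authors' totals, against 806 of all 17980 genes. With closed eyes only 12 were higher, against 2950 of all 17802 genes. Over left-out samples 0 to 10 members were higher and 0 to 1 lower. Without E32, 2700 higher and 3449 lower of all 17802 genes were called. With open eyes only 0 members were lower, against 1035 of all 17976 genes. There Cdk1 turned to -0.10 (authors' totals) and -0.02 (at least 1 RPKM), with -0.03 to 0.15 over left-out samples, and Ccnb1 to -0.19, -0.11 and, with closed eyes only, -0.03 (left-out range -0.18 to 0.13).

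In newborns 2 members were called lower in labelled knockouts with size factors, against 1899 of all 17592 genes. There were also 2 at a mean of at least 1 RPKM (2269 of 14044 genes) and without lens genes (1758 of 17712). DESeq2 called 3 lower, against 2153 of 17119 genes. The authors' totals gave 0 (1084 of 17592) and the replicate block 1 (1330 of 17592). With samples left out, the call of E2f1 was lost in the cases given above. Mki67 ran from -0.48 to 0.11 and Mcm2 from -0.34 to 0.08. Replicate numbers there name no shared animal or batch (correlation of deviations 0.0193 over 14987 genes), so the replicate block is an alternative only.

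Adult genotype values turned with 1 library. Left-out samples gave as lowest value that without adult knockout 2 and as highest that without adult knockout 1: the median was -0.17 and 0.55, Mki67 -0.43 and 0.60, Top2a -0.58 and 0.54, Cdk1 -0.06 and 1.34, Ccnb1 -0.92 and 0.64, Mcm2 -0.30 and 0.27, E2f1 -0.15 and 0.26, and Foxm1 -0.32 and 0.55. The genotype effect in adults minus newborns likewise had a median of 0.03 and 0.81, Mki67 -0.29 and 0.77, Top2a -0.16 and 0.98, Ccnb1 -0.70 and 0.89, Mcm2 -0.16 and 0.44, and Foxm1 -0.09 and 0.81, with 0 to 2 members called higher.

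At day 3, with closed eyes only, the knockout difference was 0.07 for Top2a, 0.10 for Pcna and 0.01 for Foxm1, and Cdk1 ran from -0.12 to 0.18 over left-out mice. Open against closed ran over left-out mice from -0.26 to 0.04 for the median, -0.38 to 0.12 for Top2a, -0.45 to 0.06 for Cdk1 and -0.10 to 0.04 for Mcm2, and Ccnb1 was -0.27 with no mouse block. The causes were not tested. Groups of 1 to 3 limit all genotype and eyelid results. In the simulated newborn comparison 25 of 50 genes changed by 1 on the log2 scale passed (16697 genes). The simulation gave every gene the same spread and changed few genes, so this share does not carry over to the real comparison. Adult and day-3 levels under a few CPM rest on few reads.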

Other observations

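Among housekeeping genes, Gapdh stood at 1.04 to 2.93 CPM in all 15 libraries, and Pgk1 fell from 96.6 to 142 CPM in newborns to 14.7 to 18.9 CPM in adults (log2 fold change -2.89). Gapdh is known to have many processed copies in the mouse genome. Ube2s, an E2 enzyme of the anaphase-promoting complex, went from 56.4 to 85.9 CPM to 1.53 to 2.64 CPM, and Btg3, an antiproliferative gene, from 11.3 to 12.8 CPM to 0.0439 to 0.23 CPM. These were chosen after their values were seen.

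Spc25, a kinetochore subunit outside the set, was higher in adults than in newborns (log2 fold change 0.74), the only one of 80 further mitotic genes called so. It stood at 33.8, 23.3 and 36 CPM in adults and at 32.3, 26, 9.02 and 15.1 CPM in newborns, so that the groups overlapped.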
